A study of Homo sapiens and Mus musculus with 19 samples.

Results

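Polycomb repressive complex 1 (PRC1) is the enzyme that places ubiquitin on histone H2A (the mark H2AK119ub), and 10 genes of its catalytic and scaffold core were followed here in chromatin-associated RNA. They were chosen by symbol and not by a rule on measured values, though with earlier results of these data known. The members are the RING-type ubiquitin ligases RING1 and RNF2, the 6 PCGF genes PCGF1, PCGF2, PCGF3, BMI1, PCGF5 and PCGF6, and the subunits RYBP and KDM2B. All 10 were found among the 58721 genes counted in the human libraries, and their mouse orthologues of the same symbols were found among the 54446 genes counted in the mouse libraries. All 10 passed the filter on low counts in both species.

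Every PRC1 complex holds RING1 (RING1A) or RNF2 (RING1B) bound to a PCGF protein through their RING fingers, and it is this pair that transfers ubiquitin to H2A. The PCGF protein decides which other subunits can join. PCGF2 (MEL18) and BMI1 (PCGF4) form the canonical complexes, in which a CBX chromodomain protein reads trimethylated lysine 27 of histone H3 and a PHC protein lets complexes cluster. The variant complexes carry RYBP or its relative YAF2 in place of CBX. RYBP stimulates the ligase and binds the ubiquitin mark itself. PCGF1 works with KDM2B, a histone demethylase whose CXXC zinc finger recognises unmethylated CpG islands, and with BCOR. PCGF3 and PCGF5 work with AUTS2 and casein kinase 2, and PCGF6 works with MGA, MAX, E2F6 and L3MBTL2. In embryonic stem cells PRC1 keeps genes of later lineages silent. In blood cells BMI1 is best known for the self-renewal of stem cells and leukaemia cells. The mark is taken off again by the BAP1 deubiquitinase, to which MBD6 binds.

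K562 is a leukaemia line of human origin with erythroid features, and mESC are embryonic stem cells of the mouse. The mESC groups were siControl and siNsun2, the second with siRNA that targets the RNA cytosine-5 methyltransferase gene Nsun2, and the K562 groups combined the TET2 genotypes WT and KO with the shRNAs shControl and shMBD6. TET2 is a dioxygenase that oxidises 5-methylcytosine. Each of the 6 groups had 3 libraries. The study's legends call its genome-wide data biological replicates, but neither they nor the labels say whether these libraries came from separate cultures, so p-values measure only the spread between the libraries, which may be technical. Per the study's methods, mESC were grown on gelatin with LIF and inhibitors after feeder cells had been cleared and were transfected with siRNA, and both K562 genotypes were gifts from another laboratory. The methods describe lentiviral shRNA with puromycin selection. They do not say whether the KO cells are a single clone, so clone and genotype cannot be told apart. In all groups the RNA was the fraction left on chromatin, with ribosomal RNA depleted and strand kept, so a level is that of nascent and retained RNA and not of mature mRNA or protein.

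Gene counts per library lay between 58078323 and 66832780 in mESC and between 52158403 and 102070223 in K562. Levels are CPM, counts as a share of the library's total after scaling by edgeR's TMM factors. They are relative, since no spike-in was counted, and in bulk cells fewer cells of a type and less RNA per cell cannot be told apart. The share of reads outside genes was 19.6% to 20.2% in siControl and 28.9% to 29.9% in siNsun2 libraries, 13.1% to 13.3% in WT shControl, 15.6% to 16.0% in WT shMBD6, and 15.0% to 15.2% in both KO groups. Its part in the differences below was not tested. Nsun2 was lower in siNsun2 (103 ± 3.55 CPM, SD, n = 3, against 129 ± 3.45), and MBD6 was lower with shMBD6 in WT cells (28.0 ± 2.71 against 41.5 ± 2.55 CPM). In KO cells MBD6 was not lower with the label: the libraries labelled shMBD6 had 34.4 ± 3.86 CPM and their shControl libraries 30.3 ± 0.750. The groups overlapped and the difference was not called (log2 change 0.19, adjusted p = 0.0574 by edgeR's quasi-likelihood test with Benjamini-Hochberg adjustment). The 3 KO libraries with the shMBD6 label are therefore called "labelled shMBD6", and a direction drawn from them is one between labels. TET2 RNA itself was not called different between the genotypes under shControl (129 ± 2.23 CPM in KO, 121 ± 2.59 in WT), and under shMBD6 it was called lower in the KO libraries labelled so (94.8 ± 5.28 against 122 ± 4.07 CPM, log2 change -0.36). The nature of the edit is not given in the sources used here, so WT and KO stand for the labels. Of 7 erythroid markers of K562, 5 to 6 reached 1 CPM in each group, with HBG2 at 0 everywhere; their summed level was 785 to 807 CPM in WT shControl, 523 to 538 in WT shMBD6, 452 to 458 in KO shControl and 637 to 647 in KO labelled shMBD6. Of 4 megakaryocyte markers only ITGA2B reached 1 CPM, PF4 and GP9 were at or near 0, and the sums were 37.7 to 43.9, 38.2 to 44.3, 29.0 to 35.0 and 22.7 to 29.3 CPM in the same order. The mESC marker sum was 1131 to 1169 CPM in siControl and 981 to 1007 in siNsun2, with Sox2 at 0 (it lies inside another gene on its own strand, whose shared reads were set aside), and the feeder fibroblast sum was 33.4 to 35.8 and 28.4 to 30.5 CPM. The part of these shifts in the results was not tested.

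The human members lie on 8 chromosomes, in hg38 at chr6:33208500-33212722 (RING1, 4.223 kb, plus strand), chr1:185045526-185102603 (RNF2, 57.078 kb, plus), chr2:74505043-74507695 (PCGF1, 2.653 kb, minus), chr17:38733898-38749817 (PCGF2, 15.92 kb, minus), chr4:705748-770089 (PCGF3, 64.342 kb, plus), chr10:22321099-22331484 (BMI1, 10.386 kb, plus), chr10:91163012-91284337 (PCGF5, 121.326 kb, plus), chr10:103302796-103351144 (PCGF6, 48.349 kb, minus), chr3:72371825-72446621 (RYBP, 74.797 kb, minus) and chr12:121429096-121581023 (KDM2B, 151.928 kb, minus). BMI1, PCGF5 and PCGF6 thus share chromosome 10. Reads were counted over whole gene spans, introns included, and reads shared by overlapping genes on 1 strand were set aside. This touches human BMI1 above all: 81.3% of its span and 55.8% of its exon length are also annotated to the read-through gene COMMD3-BMI1, which itself held 3 to 25 counts per library. Every human BMI1 value below is an undercount and uncertain for that reason. No other human member has over 0.275% of its span so covered, and in the mouse Bmi1 has no such overlap; the mouse members with the largest shares are Rnf2 (7.05%) and Rybp (6.13%).

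The promoters of PCGF5 and PCGF6 are shown because these members went opposite ways in the KO libraries labelled shMBD6 (below) and because KDM2B recognises unmethylated CG-rich DNA. Each runs from 250 bases before to 50 bases after the start that RefSeq gives (GRCh38.p14), 5′ to 3′ on the gene's strand, with every CG in capitals. All 10 human members had at least 1 such window in the RefSeq table, PCGF5 and KDM2B with 4 and BMI1 with 2, of which the one nearest the annotated start was taken.
PCGF5, chr10:91162762-91163061, plus strand: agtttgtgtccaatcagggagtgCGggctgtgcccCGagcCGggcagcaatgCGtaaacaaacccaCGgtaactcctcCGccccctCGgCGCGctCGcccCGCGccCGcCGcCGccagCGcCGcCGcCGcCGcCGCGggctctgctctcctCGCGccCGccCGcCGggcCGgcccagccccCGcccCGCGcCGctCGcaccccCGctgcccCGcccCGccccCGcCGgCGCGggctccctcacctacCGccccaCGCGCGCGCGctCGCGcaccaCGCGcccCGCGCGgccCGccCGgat
PCGF6, chr10:103351091-103351390, minus strand: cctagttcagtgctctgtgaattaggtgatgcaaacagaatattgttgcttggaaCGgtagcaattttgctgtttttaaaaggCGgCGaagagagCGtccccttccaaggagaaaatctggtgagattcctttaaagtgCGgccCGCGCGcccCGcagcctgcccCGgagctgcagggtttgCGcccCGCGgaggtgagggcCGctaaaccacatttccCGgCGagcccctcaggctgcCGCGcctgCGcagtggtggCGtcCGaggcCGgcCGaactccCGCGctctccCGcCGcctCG
PCGF5 held 55 CG in its window, and only 0.373% of the 35116 promoter windows in the table held as many. PCGF6 held 28, a number that 26.2% of windows reached, and the median of all windows was 14. RING1 and RNF2 had 41 each, PCGF3 38, BMI1 36, RYBP 20, KDM2B 15 and PCGF1 14. The PCGF2 window, with 2 CG, is set on a RefSeq start that lies 3189 bases from the start in the counted annotation. CACGTG, the E-box that MGA and MAX bind, was present in 1 of the 10 windows (BMI1) and in 7.26% of all windows, and TCCCGC, a core of E2F sites, was present on either strand in 4 (RING1, RNF2, PCGF1 and PCGF6) and in 26.9% of all windows. The motifs can overlap each other only at an end base, and a match is a description only.

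The question of which PRC1 forms the RNA of each cell could supply was addressed by levels per kb of gene span, since reads were counted over spans. In siControl mESC, Rybp stood highest, at 8.70, 8.89 and 9.07 CPM per kb in the 3 libraries (8.89 ± 0.188, mean ± SD). Pcgf2, of the canonical complexes, followed at 5.40, 5.10 and 4.94 CPM per kb. Pcgf6 came next with 2.92 ± 0.169 CPM per kb, then Pcgf1 with 2.11 ± 0.289 and the ligase Rnf2 with 2.00 ± 0.0716. Pcgf1 and Rnf2 overlapped between libraries, so their order is not resolved, whereas each of the 3 genes above them was clear of the next. Lower down lay Pcgf3 (1.77 ± 0.0197), then Kdm2b (0.991 ± 0.0178) and Bmi1 (0.915 ± 0.108), which overlapped, and Ring1 (0.671 ± 0.0615). Pcgf5 was last at 0.334, 0.344 and 0.341 CPM per kb. Among 20795 protein-coding genes Rybp stood at percentile 98.3, Pcgf2 at 96.2 and Pcgf5 at 54.1. Olfactory receptor genes, which neither cell is expected to transcribe, gave 0.0304 CPM per kb as a background, so Pcgf5 was 11.2 times and Pcgf2 169 times that level.

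K562 differed from mESC most in PCGF2. In WT shControl K562, RYBP was again highest, at 4.75, 4.90 and 4.83 CPM per kb, but PCGF2 was lowest, at 0.105, 0.174 and 0.141 CPM per kb. Those PCGF2 levels were 2.52 times the olfactory background (0.0556 CPM per kb), and in the other 3 K562 groups PCGF2 lay at 0.862 to 1.09 times the background of its own group, so its RNA was at or near background there. Between the ends came PCGF1 (1.75 ± 0.127 CPM per kb), PCGF3 (1.53 ± 0.0399), RNF2 (1.39 ± 0.0350), PCGF5 (0.746 ± 0.0443), PCGF6 (0.677 ± 0.0391), RING1 (0.558 ± 0.0806), KDM2B (0.453 ± 0.00251) and BMI1 (0.450 ± 0.0461). Of these, PCGF5 overlapped PCGF6, PCGF6 overlapped RING1, and KDM2B overlapped BMI1, while the other neighbours in the order did not overlap. RYBP was first and PCGF2 last in all 4 K562 groups. The 2 lines were counted on different annotations and aligned to different genomes, and they were not tested against each other. The order depends on the length used. Per kb of exon, PCGF1 dropped to rank 7 and RNF2 rose to rank 2 in WT shControl, and in siControl mESC Pcgf2 was at rank 3 behind Rybp and Rnf2 and Ring1 was last, while RYBP first and PCGF2 last in K562 held.

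**Figure D1:**
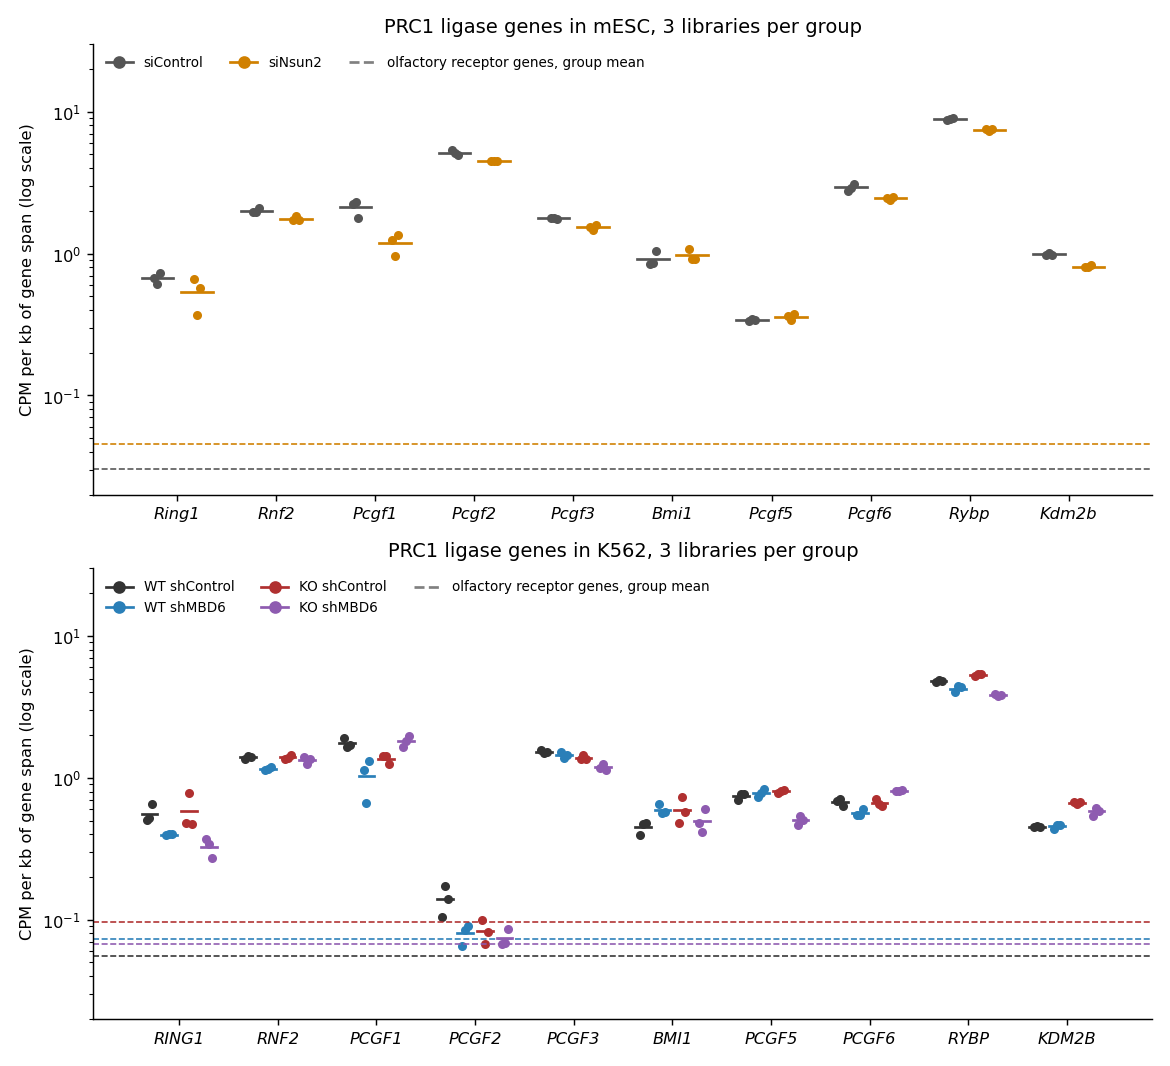
Level of each PRC1 ligase gene per kb of gene span (CPM per kb, log axis) in the 6 groups; points are libraries, bars group means and dashed lines the olfactory receptor background of each group. RYBP stood highest in every group, and Pcgf2 was second in both mESC groups whereas PCGF2 was lowest in all 4 K562 groups.

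Set against each other as shares of the summed per-kb level of the 6 PCGF genes, the PCGF mixture of the lines was unlike. In siControl mESC, Pcgf2 made up 39.0% ± 1.31 (SD, n = 3), Pcgf6 22.2% ± 1.64, Pcgf1 16.0% ± 1.94 and Pcgf3 13.4% ± 0.131, with Bmi1 at 6.94% ± 0.947 and Pcgf5 at 2.57% ± 0.0650. In WT shControl K562, PCGF1 made up 33.0% ± 2.07 and PCGF3 28.9% ± 0.501, followed by PCGF5 with 14.1% ± 0.978, PCGF6 with 12.8% ± 0.671 and BMI1 with 8.50% ± 0.958, and PCGF2 made up 2.65% ± 0.667. Per kb of span the PCGF1 share had the widest range between K562 groups: 22.6% ± 5.47 in WT shMBD6, 27.8% ± 1.29 in KO shControl and 37.0% ± 1.43 in KO labelled shMBD6. The PCGF5 share was 16.5% ± 0.862 in KO shControl and 10.3% ± 0.608 in KO labelled shMBD6. These shares need no scaling between libraries but do depend on length: per kb of exon, PCGF1 made up 6.58% ± 0.524 in WT shControl and PCGF3 35.4% ± 1.24, and in siControl mESC Pcgf2 made up 38.2% ± 1.46. Per kb of exon the widest range between K562 groups was that of PCGF6, from 24.3% ± 0.592 in WT shMBD6 to 36.5% ± 0.888 in KO labelled shMBD6, and PCGF1 ran from 4.18% ± 1.21 to 7.69% ± 0.558 in the same groups.

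**Figure D2:**
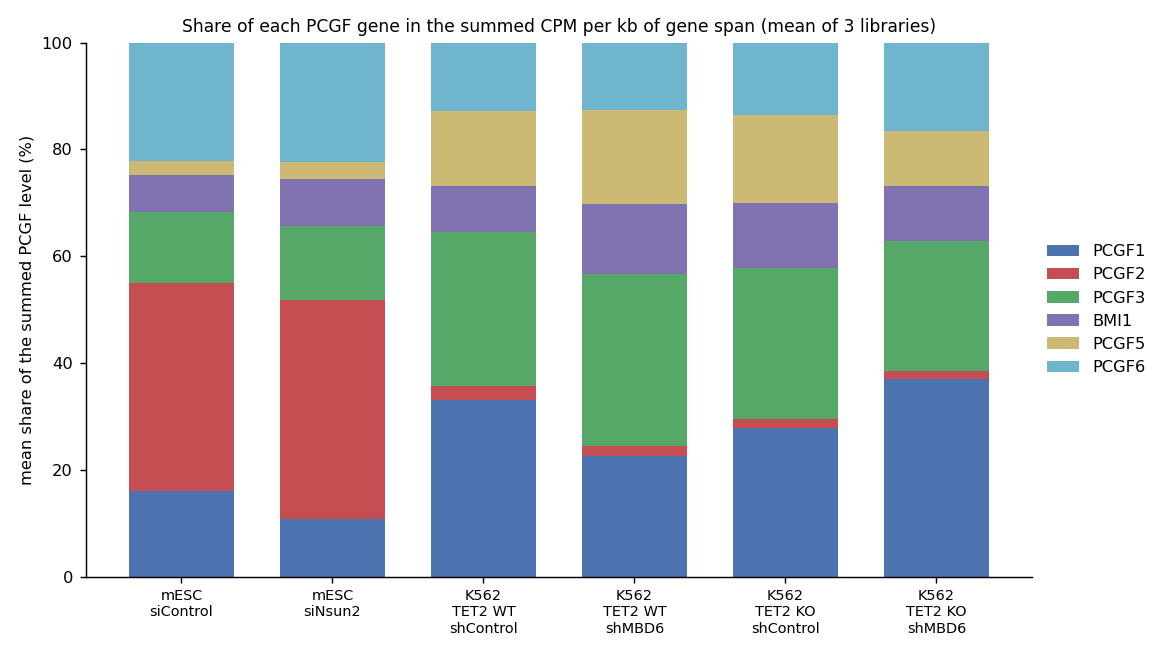
Mean share of each PCGF gene in the summed CPM per kb of gene span of the 6 PCGF genes, stacked to 100% for the 6 groups of 3 libraries. Pcgf2 made up 39.0% in siControl mESC and 2.65% in WT shControl K562, and the PCGF1 share went from 22.6% in WT shMBD6 to 37.0% in KO labelled shMBD6.

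In mESC the comparison of siNsun2 with siControl asked how PRC1 RNA on chromatin stood with siRNA against Nsun2. Nsun2 RNA itself had a log2 change of -0.34, where genes of at least 5 log2 CPM had a median of -0.21. Most members were modestly lower, and the largest difference was that of Pcgf1, the scaffold of the KDM2B complex. Pcgf1 read 6.67, 6.94 and 5.33 CPM in the siControl libraries and 3.71, 2.87 and 4.06 in the siNsun2 libraries, on 418, 412 and 325 and 233, 179 and 255 counts. The groups did not overlap, and the log2 change was -0.83 ± 0.14 (SE), a 1.78-fold decrease (adjusted p = 5.26e-07 by edgeR's quasi-likelihood test with Benjamini-Hochberg adjustment). Its partner Kdm2b read 117, 121 and 117 against 95.8, 95.6 and 98.3 CPM, again with every siNsun2 library below every siControl library (-0.29 ± 0.031, adjusted p = 1.69e-13). Rybp read 512, 524 and 535 against 442, 431 and 445 CPM (-0.25 ± 0.022, adjusted p = 9.63e-18).

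Of the ligases, Rnf2 read 84.2, 84.3 and 89.6 CPM in siControl and 73.9, 79.1 and 73.9 in siNsun2 (-0.19 ± 0.036, adjusted p = 7.69e-06 by edgeR's quasi-likelihood test with Benjamini-Hochberg adjustment). Ring1, its less abundant paralogue, read 2.63, 2.36 and 2.83 and 2.57, 1.44 and 2.21 CPM, so that the groups overlapped (-0.33 ± 0.20, adjusted p = 0.162). Pcgf2 gave 63.1, 59.6 and 57.6 against 52.6, 52.9 and 52.6 CPM (-0.19 ± 0.041) and Pcgf3 81.0, 82.0 and 80.1 against 70.5, 66.6 and 73.2 (-0.21 ± 0.037). Pcgf6, of the MGA complex, gave 47.8, 50.4 and 53.6 against 42.8, 41.2 and 43.3 CPM (-0.25 ± 0.046). None of these 3 pairs of groups overlapped, and their adjusted p lay between 1.02e-06 and 6.90e-05 by edgeR's quasi-likelihood test with Benjamini-Hochberg adjustment. The other canonical PCGF gene, Bmi1, had 8.17, 8.22 and 10.0 and 10.4, 8.83 and 8.78 CPM (0.086 ± 0.10, adjusted p = 0.509), and Pcgf5 had 37.6, 38.8 and 38.4 and 40.9, 38.6 and 42.1 (0.082 ± 0.049, adjusted p = 0.152). Both overlapped.

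In all, 7 of the 10 members were called lower in siNsun2 and 0 higher (8 of 10 had a negative change), where 24.3% of the 27603 genes tested were called lower, 25.8% higher and 50.2% either way, but with libraries scaled by their total gene counts 3 were called lower and 2 higher. Groups did not overlap for 7 of 10, against 56.7% of all genes. The members' median log2 change was -0.23, that of all genes 0.14 and that of the 5532 genes of at least 5 log2 CPM -0.21, of which 4356 were called lower. Of the members, Ring1, Pcgf1 and Bmi1 lay below that level. Scaling by total counts moved the all-gene median to 0.32. Under it Pcgf1, Rybp (-0.072) and Kdm2b (-0.11) were still called lower, Bmi1 (0.27) and Pcgf5 (0.26) were called higher, and Rnf2, Pcgf2, Pcgf3 and Pcgf6 lay between -0.071 and -0.0045 with no call. Pcgf1 alone was over 1.5-fold lower.

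Of the 31 other listed PRC1 subunits 30 were tested in mESC, and 4 were called higher and 19 lower (11 and 9 with total gene counts), with a median of -0.14. By kind, 1 of 9 tested canonical subunits was higher and 4 lower, 1 and 2 of the 4 partners of PCGF1, 1 and 3 of the 6 partners of PCGF3 and PCGF5, 1 and 8 of the 9 partners of PCGF6, and 0 and 2 of the 2 shared variant subunits, which under total counts became 4 and 2 for the canonical subunits, 3 and 1 for the PCGF1 partners, 2 and 2 for the PCGF3 and PCGF5 partners, 2 and 3 for the PCGF6 partners and 0 and 1 for the shared subunits. Cbx2, the CBX subunit that compacts chromatin, fell from 5.18 ± 0.802 to 3.44 ± 0.310 CPM (-0.59 ± 0.15, adjusted p = 0.000482 by edgeR's quasi-likelihood test with Benjamini-Hochberg adjustment). E2f6 and Mga, both DNA-binding partners of Pcgf6, went apart: E2f6 rose from 8.72 ± 0.606 to 13.0 ± 1.01 CPM (0.58 ± 0.094) and Mga fell from 510.5 ± 8.98 to 397 ± 7.36 CPM (-0.36 ± 0.022). Of the 9 genes that remove or read H2AK119ub, 0 were higher and 5 lower (3 and 3 with total gene counts, 0 and 8 with DESeq2 size factors).

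In K562 the 12 libraries gave the following levels, taken by role. The ligase RNF2 read 77.2, 81.0 and 80.3 CPM in WT shControl, 65.0, 65.5 and 68.1 in WT shMBD6, 77.3, 78.7 and 82.9 in KO shControl and 80.4, 71.0 and 78.0 in KO labelled shMBD6. All 3 WT shMBD6 libraries lay below the other 9. RING1, the minor ligase here, read 2.13, 2.19 and 2.75 CPM in WT shControl, 1.66, 1.69 and 1.69 in WT shMBD6, 2.04, 3.31 and 2.00 in KO shControl and 1.55, 1.45 and 1.14 in KO labelled shMBD6, on 88 to 276 counts per library. The KO shControl value of 3.31 stood above the other libraries, and the KO labelled shMBD6 libraries were the lowest.

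Among the variant-complex scaffolds, PCGF1 had 5.02, 4.39 and 4.51 CPM in WT shControl, 3.00, 1.76 and 3.49 in WT shMBD6, 3.75, 3.78 and 3.33 in KO shControl and 4.36, 4.82 and 5.21 in KO labelled shMBD6. It was high in WT shControl and in KO labelled shMBD6 and low in WT shMBD6, whose second library (100 counts) was the lowest of all. PCGF5 had 84.3, 93.8 and 93.5 CPM, 89.1, 95.2 and 102, 94.9, 98.7 and 100.2 and 56.6, 65.3 and 60.8 in the same order of groups. Its 3 KO labelled shMBD6 libraries lay clear below the other 9, which overlapped. PCGF6 had 33.3, 34.2 and 30.6, 26.5, 26.5 and 29.1, 34.4, 31.6 and 30.6 and 38.8, 39.2 and 39.5 CPM. For PCGF6 the same 3 libraries were the highest of the 12, and the WT shMBD6 libraries were the lowest. PCGF3 had 101, 96.6 and 97.5, 97.8, 88.2 and 92.6, 87.6, 92.7 and 87.4 and 75.1, 80.6 and 73.6 CPM, lowest in KO labelled shMBD6.

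RYBP, the most abundant member, read 355, 366 and 361 CPM in WT shControl, 302, 329 and 324 in WT shMBD6, 393, 405 and 401 in KO shControl and 289, 283 and 287 in KO labelled shMBD6. The 4 groups did not overlap one another. KDM2B read 68.7, 69.2 and 68.5 CPM, 66.6, 70.7 and 71.1, 103, 99.5 and 102 and 82.0, 93.6 and 88.6 in the same order. Every KO library was above every WT library. Of the canonical PCGF genes, BMI1 (undercounted) read 4.13, 4.87 and 5.02 CPM, 6.74, 5.85 and 5.97, 5.03, 7.59 and 5.97 and 4.95, 4.31 and 6.28, with the WT shControl libraries at the low end. PCGF2 read 1.67, 2.77 and 2.24 CPM, 1.04, 1.36 and 1.45, 1.58, 1.08 and 1.304 and 1.07, 1.098 and 1.36, on 62 to 289 counts per library, and its WT shControl libraries were the highest.

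**Figure D3:**
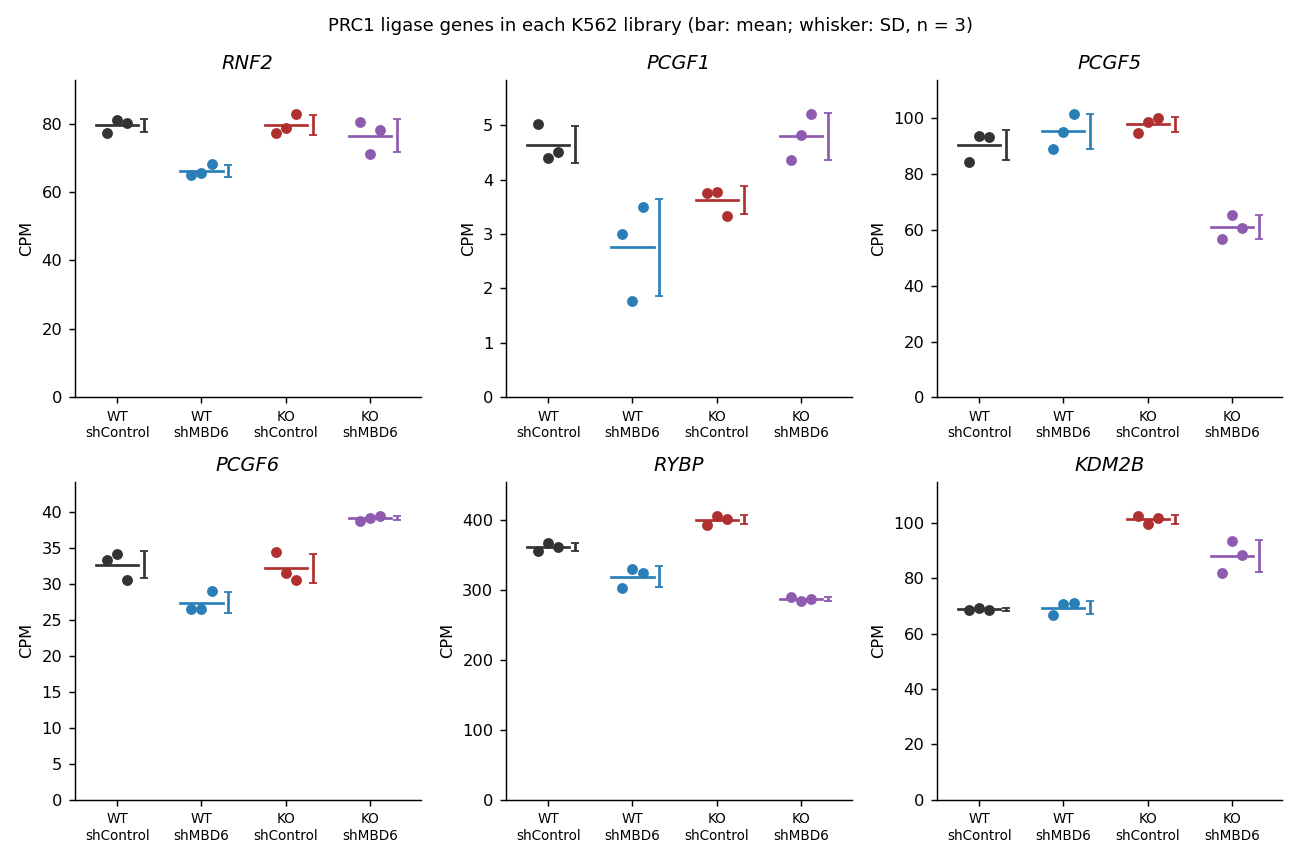
CPM of 6 PRC1 ligase genes in each of the 12 K562 libraries by group, with the group mean as a bar and the SD (n = 3) as whiskers (linear axes from 0). The 3 KO labelled shMBD6 libraries were the lowest for PCGF5 and RYBP and the highest for PCGF6, and every KO library was above every WT library for KDM2B.

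The TET2 genotypes were first compared under shControl, where KDM2B had the smallest p of the members. KDM2B was 1.47-fold higher in KO (log2 change 0.56 ± 0.045, adjusted p = 2.21e-12 by edgeR's quasi-likelihood test with Benjamini-Hochberg adjustment). RYBP was called higher (0.15 ± 0.030, adjusted p = 0.000114), but with total gene counts its change was -0.031. PCGF3 was called lower (-0.14 ± 0.045, adjusted p = 0.00910), as was PCGF2 (-0.75 ± 0.31, adjusted p = 0.0479). That PCGF2 call, on a gene near background, was lost with no filter on low counts, with the replicate block, and without WT shControl replicate 2 (-0.56) or 3 (-0.75) or KO shControl replicate 2 (-0.63) or 3 (-0.74). So 2 of 10 members were called higher and 2 lower, where 23.5% of the 26023 genes tested were called higher, 22.3% lower and 45.8% either way, and 7 of 10 did not overlap between the groups, against 56.1% of all genes. With total gene counts, which moved the all-gene median from -0.053 to -0.23, 1 was called higher and 5 lower, RNF2 (-0.17), PCGF1 (-0.53) and PCGF6 (-0.20) among them. The other members had 0.051 ± 0.27 (RING1), 0.0027 ± 0.047 (RNF2), -0.36 ± 0.21 (PCGF1), 0.40 ± 0.17 (BMI1), 0.11 ± 0.052 (PCGF5) and -0.023 ± 0.067 (PCGF6), and BMI1 was called higher (0.53) without KO shControl replicate 1.

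Around them, 7 of the 10 canonical subunits were called higher in KO shControl and 0 lower (4 and 1 with total gene counts), 0 and 2 of the 4 PCGF1 partners (0 and 4), 3 and 1 of the 5 tested PCGF3 and PCGF5 partners (3 and 2), 1 and 3 of the 9 PCGF6 partners (1 and 8), 1 and 0 of the 2 shared subunits (0 and 1), and 4 and 3 of the 9 genes that remove or read the mark (2 and 6), the counts in brackets all being with total gene counts. SCML2, a canonical subunit that also binds RNA, rose from 37.7 ± 1.95 to 67.8 ± 2.34 CPM (0.85 ± 0.053, adjusted p = 2.31e-15 by edgeR's quasi-likelihood test with Benjamini-Hochberg adjustment). MGA rose from 189 ± 1.81 to 316 ± 8.06 CPM (0.74 ± 0.030), and BCOR, the corepressor that joins PCGF1, fell from 404 ± 12.3 to 271 ± 2.29 CPM (-0.58 ± 0.029). KDM2B and BCOR, both of the PCGF1 complex, thus moved in opposite directions between the genotypes. The 109 other tested protein-coding genes within 5 Mb of MGA had a median log2 change of 0.55 in this comparison. Such neighbours of SCML2 had -0.16 and those of BCOR 0.30, and the part of neighbourhood was not tested.

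In WT cells shMBD6 was compared with shControl, and PCGF1 was called lower (-0.75 ± 0.21, adjusted p = 0.00369 by edgeR's quasi-likelihood test with Benjamini-Hochberg adjustment, a 1.68-fold decrease), although without WT shMBD6 replicate 2 the change was -0.52 with an adjusted p of 0.0497. RNF2 fell (-0.26 ± 0.047, adjusted p = 2.10e-05), and this held with DESeq2 size factors (-0.15) and total gene counts (-0.17). PCGF6 (-0.26 ± 0.067, adjusted p = 0.00204) and RYBP (-0.18 ± 0.030, adjusted p = 6.24e-06) were called lower but lost the call with DESeq2 size factors (-0.15 and -0.071). Both also lost the call with no filter and with DESeq2, and PCGF6 lost it with total gene counts (-0.16). PCGF2 (-0.80 ± 0.31, adjusted p = 0.0367) lost it with either scaling (-0.69 and -0.71), with no filter (-0.70), and without WT shControl replicate 2 (-0.62) or 3 (-0.81) or any single WT shMBD6 library (-0.91 to -0.67). In all 5 of 10 were called lower and 0 higher, where 24.7% of all genes were called lower and 42.5% either way, while with DESeq2 size factors 2 were called lower and 3 higher, BMI1 (0.51), PCGF5 (0.18) and KDM2B (0.12), and with total gene counts 3 and 3. The all-gene median was 0.10 and moved to 0.21 with those size factors. Among the 5953 genes of at least 5 log2 CPM, 3528 were called lower and 1081 higher, with a median of -0.17. RING1, PCGF1, PCGF2 and BMI1 lay below that level in K562. Groups did not overlap for 7 of 10 members, against 57.7% of all genes. The members not called were RING1 (-0.49 ± 0.28), PCGF3 (-0.084 ± 0.045, called at -0.13 without WT shMBD6 replicate 1), BMI1 (0.41 ± 0.17), PCGF5 (0.073 ± 0.052) and KDM2B (0.014 ± 0.046).

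Of the other subunits, all 9 PCGF6 partners were called lower with shMBD6 in WT cells (7 with DESeq2 size factors and 8 with total gene counts), with a median of -0.40 beside -0.17 for genes of at least 5 log2 CPM. The canonical subunits had 3 higher and 1 lower of 10 (4 and 1 with either other scaling), the PCGF1 partners 0 and 2 of 4, the PCGF3 and PCGF5 partners 2 and 2 of 5 (2 and 1 with DESeq2 size factors), the shared subunits 0 and 2 of 2 (0 and 1 with either other scaling), and the genes that remove or read the mark 2 and 7 of 9 (2 and 6 with either). AUTS2, which joins PCGF3 and PCGF5, rose from 6.90 ± 0.779 to 17.7 ± 1.26 CPM (1.36 ± 0.13, adjusted p = 8.06e-11 by edgeR's quasi-likelihood test with Benjamini-Hochberg adjustment), BCOR fell from 404 ± 12.3 to 266 ± 8.15 CPM (-0.60 ± 0.029) and CBX6 fell from 25.3 ± 3.69 to 16.7 ± 0.586 CPM (-0.60 ± 0.095).

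In KO cells PCGF5 was lower in the libraries labelled shMBD6 than in shControl, by 1.61-fold (-0.68 ± 0.052, adjusted p = 1.20e-12 by edgeR's quasi-likelihood test with Benjamini-Hochberg adjustment). RYBP fell 1.39-fold (-0.48 ± 0.030, adjusted p = 7.51e-15) and PCGF6 rose 1.22-fold (0.28 ± 0.067, adjusted p = 0.000931). KDM2B (-0.20 ± 0.045, adjusted p = 0.000515) and PCGF3 (-0.22 ± 0.045, adjusted p = 0.000172) were called lower but not with total gene counts (-0.077 and -0.10). RING1 was called lower (-0.82 ± 0.28, adjusted p = 0.0202), and lost the call with no filter (-0.77), without KO shControl replicate 2 (-0.55) and without KO labelled shMBD6 replicate 3 (-0.70). That is 1 of 10 higher and 5 lower, where 15.7% of all genes were called higher, 20.6% lower and 36.4% either way. Among the 5953 genes of at least 5 log2 CPM, 1900 were called higher and 2324 lower. The members' count with total gene counts was 2 and 3, PCGF1 being called higher there (0.53). Groups did not overlap for 7 of 10, against 43.8% of all genes. Not called were RNF2 (-0.059 ± 0.047), PCGF1 (0.41 ± 0.21), PCGF2 (-0.17 ± 0.32) and BMI1 (-0.25 ± 0.17). The erythroid marker sum was higher in these libraries than in KO shControl, as given above, and its part in the differences was not tested.

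Among the other subunits in KO cells, 4 of the 9 PCGF6 partners were called higher and 0 lower (7 and 0 with total gene counts), as were 3 and 1 of the 4 PCGF1 partners (3 and 0), 2 and 4 of the 10 canonical subunits (3 and 2), 1 and 2 of the 5 PCGF3 and PCGF5 partners (2 and 2), 0 and 2 of the 2 shared subunits (0 and 1), and 1 and 4 of the 9 genes that remove or read the mark (5 and 2, and 3 and 4 with DESeq2 size factors), with total gene counts in brackets throughout. AUTS2 fell 2.38-fold from 9.60 ± 0.428 to 4.03 ± 0.544 CPM (adjusted p = 1.36e-09 by edgeR's quasi-likelihood test with Benjamini-Hochberg adjustment), SCML2 fell from 67.8 ± 2.34 to 44.1 ± 0.368 CPM (-0.62 ± 0.053) and BCOR rose from 271 ± 2.29 to 418 ± 5.91 CPM (0.63 ± 0.029). AUTS2 and its scaffold PCGF5 were therefore both lower in these libraries.

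**Figure D4:**
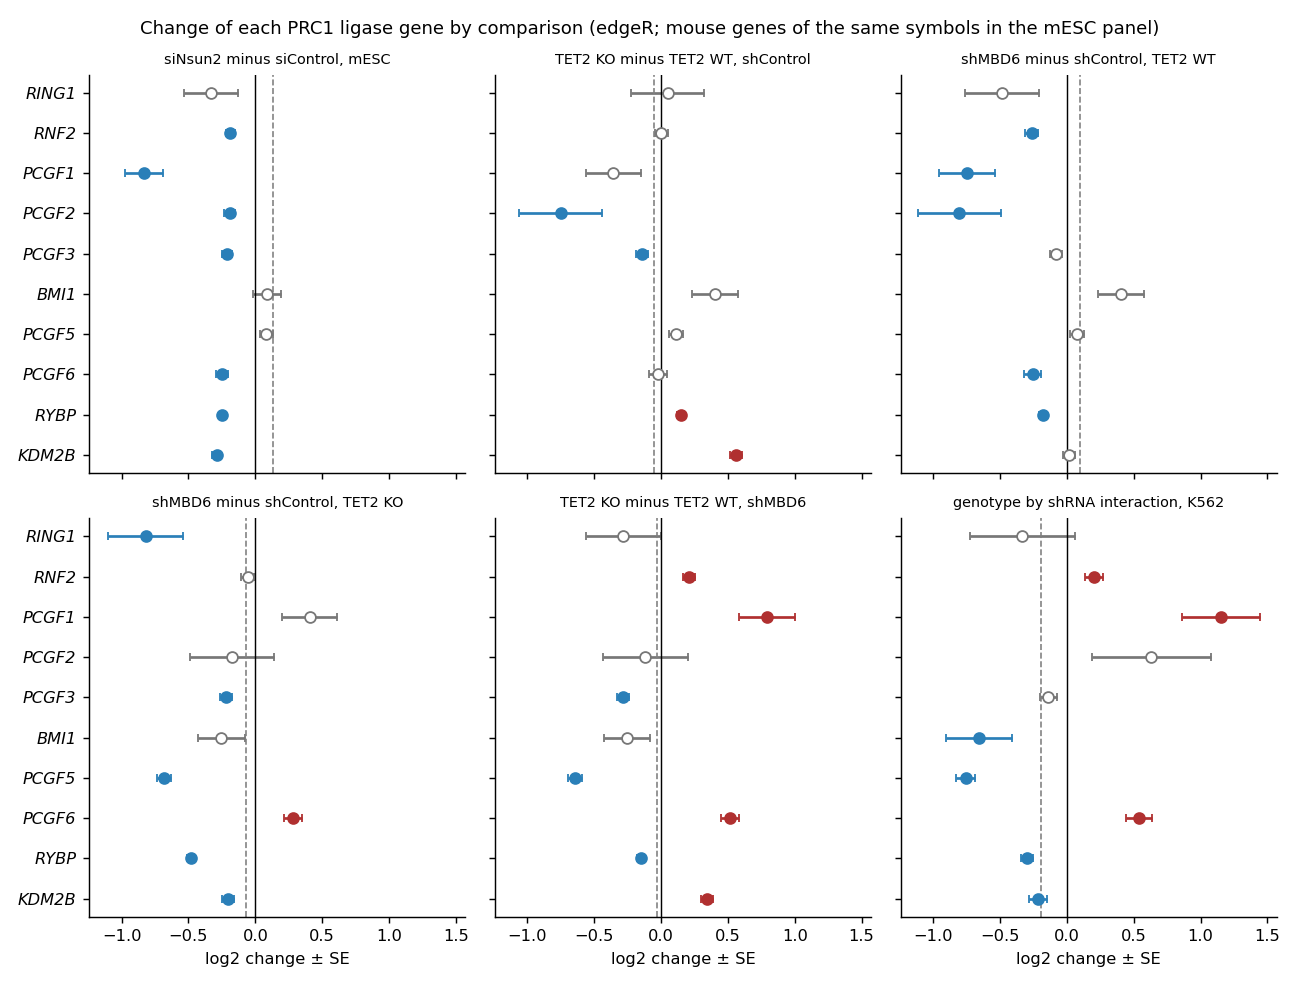
Log2 change ± SE of each PRC1 ligase gene in the 5 pairwise comparisons and the interaction, by edgeR on counts scaled with TMM. Filled points were called (red higher, blue lower), open points were not, and the dashed line is the median of all genes tested. PCGF1 was called lower in siNsun2 (-0.83) and in WT shMBD6 (-0.75), and PCGF5 and PCGF6 went opposite ways in the KO libraries labelled shMBD6. In the siNsun2 panel 4 of the 7 lower calls were lost with total gene counts.

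Between genotypes under shMBD6, PCGF1 (0.79 ± 0.21, adjusted p = 0.00160 by edgeR's quasi-likelihood test with Benjamini-Hochberg adjustment), PCGF6 (0.52 ± 0.067, adjusted p = 6.63e-08) and KDM2B (0.34 ± 0.046, adjusted p = 1.03e-07) were higher in the KO libraries labelled shMBD6 than in WT shMBD6. PCGF5 (-0.65 ± 0.052, adjusted p = 2.30e-12), PCGF3 (-0.28 ± 0.045, adjusted p = 3.02e-06) and RYBP (-0.15 ± 0.030, adjusted p = 6.48e-05) were lower, and RYBP was further down with DESeq2 size factors (-0.27). RNF2 was called higher (0.21 ± 0.047, adjusted p = 0.000363), but not with DESeq2 size factors (0.089), DESeq2 (0.089) or total gene counts (0.060). KDM2B stood at 0.22 with DESeq2 size factors and 0.19 with total gene counts, still called. This gave 4 of 10 higher and 3 lower, where 30.1% of all genes were called higher, 28.5% lower and 58.6% either way, and 8 of 10 that did not overlap, against 64.0%. RING1 (-0.28 ± 0.28), PCGF2 (-0.12 ± 0.32) and BMI1 (-0.26 ± 0.17) were not called, BMI1 being called lower (-0.41) with total gene counts. Among the 5953 genes of at least 5 log2 CPM, 3812 were called higher and 1041 lower, with a median of 0.22. The median of the PCGF6 partners was 0.36. Of the PCGF6 partners all 9 were called higher (6 with either other scaling), of the PCGF1 partners 3 higher and 1 lower of 4 (2 and 1 with either), of the canonical subunits 5 and 2 of 10 (2 and 3 with either other scaling), of the PCGF3 and PCGF5 partners 2 and 1 of 5 (2 and 2 with total gene counts), of the shared subunits 2 and 0 of 2 (0 and 0 with either), and of the genes that remove or read the mark 7 and 1 of 9 (5 and 1 with DESeq2 size factors, 3 and 2 with total gene counts). AUTS2 was 4.39-fold lower (-2.13 ± 0.13, adjusted p = 2.09e-15), and MGA (0.90 ± 0.030) and CBX6 (0.85 ± 0.095) were higher. The tested protein-coding neighbours within 5 Mb had a median of 0.73 for MGA, 0.15 for CBX6 and 0.49 for AUTS2. This comparison shares its libraries with the preceding comparisons, so its values are not separate evidence.

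The interaction, the log2 change in KO minus that in WT, was tested between the shMBD6 and shControl labels. MBD6 RNA was lower with shMBD6 in WT but not in the KO libraries labelled shMBD6, and its own interaction was 0.75. Whether the response to MBD6 loss depended on genotype therefore cannot be read from these values. PCGF1 had the largest value, 1.15 ± 0.29, adjusted p = 0.00135 by edgeR's quasi-likelihood test with Benjamini-Hochberg adjustment, with a change of -0.75 in WT and 0.41 in KO. PCGF6 was likewise positive (0.54 ± 0.095, adjusted p = 1.29e-05), lower with shMBD6 in WT and higher in the KO libraries labelled shMBD6. Its decrease in WT lost the call with DESeq2 size factors (-0.15) and with total gene counts (-0.16). PCGF5 was the most negative (-0.76 ± 0.074, adjusted p = 1.54e-10), since its decrease in KO (-0.68) had no counterpart in WT (0.073). RYBP (-0.30 ± 0.042, adjusted p = 3.63e-07) and KDM2B (-0.22 ± 0.064, adjusted p = 0.00568) were negative too. RNF2 (0.21 ± 0.067, adjusted p = 0.0107) lost its call with DESeq2 size factors (0.11), DESeq2 (0.11), no filter (0.15) and a minimum of 50 counts (0.15). BMI1 (-0.66 ± 0.25, adjusted p = 0.0260) lost its call without WT shControl replicate 1 (-0.57), WT shMBD6 replicate 1 (-0.59), KO shControl replicate 2 (-0.48) or KO labelled shMBD6 replicate 2 (-0.53). In all 3 of 10 were positive and 4 negative calls, where 23.9% and 25.5% of all genes were and 49.4% either way. Among the 5953 genes of at least 5 log2 CPM, 2906 had a positive and 1821 a negative call. RING1 (-0.33 ± 0.39), PCGF2 (0.63 ± 0.44) and PCGF3 (-0.14 ± 0.064) were not called. PCGF3 was called with DESeq2 size factors (-0.24), DESeq2 (-0.24), no filter (-0.19) and a minimum of 50 counts (-0.19). It was also called without replicate 2 of WT shMBD6 or of KO labelled shMBD6 (-0.17 in both cases).

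All 9 PCGF6 partners had a positive interaction call (9 with total gene counts and 6 with DESeq2 size factors), with a median of 0.51 beside 0.13 for genes of at least 5 log2 CPM and -0.19 for all genes. The other lists were mixed: 3 positive and 1 negative of the 4 PCGF1 partners (2 and 1 with DESeq2 size factors), 2 and 4 of the 10 canonical subunits (1 and 4), 2 and 3 of the 5 PCGF3 and PCGF5 partners, 0 of the 2 shared subunits either way (1 negative with DESeq2 size factors, 1 positive with total gene counts), and 5 and 2 of the 9 genes that remove or read the mark (4 and 2, and 6 and 2). AUTS2 (-2.61 ± 0.18, adjusted p = 5.10e-14 by edgeR's quasi-likelihood test with Benjamini-Hochberg adjustment) and SCML2 were the most negative of the called subunits and BCOR (1.23 ± 0.041) the most positive. PCGF1 and BCOR both had positive interactions and both were lower with shMBD6 in WT. KDM2B, of the same complex, had a negative interaction (-0.22) and a change of 0.014 in WT that was not called.

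Gene dosage differs along the K562 genome, so each member's change was set beside the median change of the other protein-coding genes within 5 Mb on either side. KDM2B lay above the median of its 97 tested neighbours, which was -0.042 between genotypes under shControl, while its own change was 0.56. Between genotypes under shMBD6 the same neighbours had a median of 0.29, close to its own 0.34. Under shControl the 21 neighbours of RYBP had a median of 0.25 between genotypes, above its own 0.15. For PCGF3 in that shControl comparison the 60 neighbours had -0.13, close to its own -0.14. With shMBD6 in WT, RNF2 changed by -0.26 where its 38 neighbours had a median of 0.23, and PCGF1 by -0.75 where its 70 neighbours had -0.082. In the KO libraries labelled shMBD6, PCGF5 changed by -0.68 beside -0.10 for 67 neighbours, RYBP by -0.48 beside -0.29 and PCGF6 by 0.28 beside 0.12 for 82 neighbours. The part of neighbourhood in these changes was not tested.

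**Figure D5:**
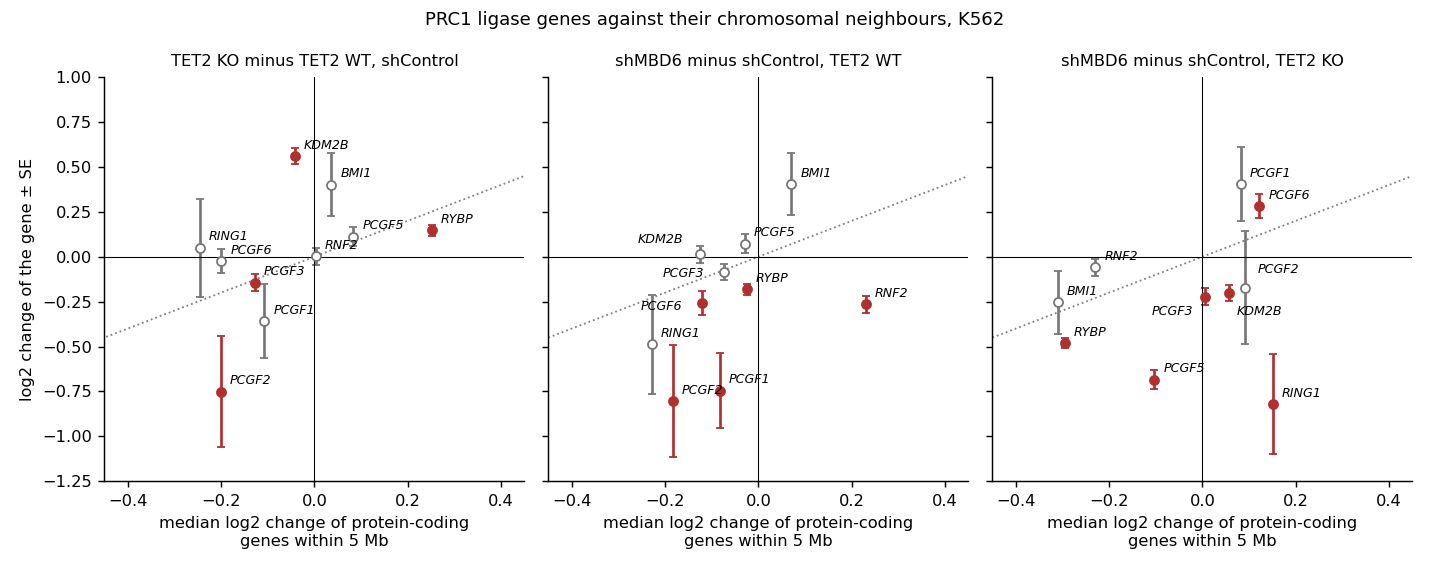
Log2 change ± SE of each member against the median log2 change of the other tested protein-coding genes within 5 Mb on either side, in 3 K562 comparisons; red points were called, open points were not, and the dotted line marks equal values. KDM2B under shControl (0.56 against -0.042) and PCGF5 in KO (-0.68 against -0.10) lie far from the line, and RYBP and PCGF3 under shControl lie nearer to it.

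The balance of the catalytic subunits was read as the ratio of RNF2 to RING1 within a library, which needs no scaling between libraries. Per kb of span the ratio was 2.86 to 3.24 in siControl and 2.61 to 4.96 in siNsun2 mESC, 2.16 to 2.74 in WT shControl, 2.86 to 2.98 in WT shMBD6, 1.76 to 3.06 in KO shControl and 3.61 to 5.05 in KO labelled shMBD6, so RNF2 exceeded RING1 in all 18 libraries. The counts themselves stood 34.4 ± 9.33 to 1 (SD, n = 3) in KO shControl and 56.3 ± 10.5 to 1 in KO labelled shMBD6, without overlap. Over 5 comparisons of the log2 count ratio, the 2-sided exact permutation p was 0.8 for siNsun2, 1 for KO against WT under shControl and 0.1 for the other 3, which is the smallest that 3 against 3 libraries allow (0.167 adjusted over the 5), so no difference could pass. Their differences were 0.18, -0.023, 0.21 (shMBD6 in WT), 0.74 (shMBD6 in KO) and 0.50 (KO against WT under shMBD6).

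By pattern over the 4 K562 groups, the protein-coding genes of at least 10 CPM most like PCGF2, the member with the widest range of group means (0.85 log2), were the histone gene H2BC8, NINJ2 and a gene known only as ENSG00000282988, with root mean square differences of 0.0208, 0.0559 and 0.0691 log2 among 8231 candidates. Those most like RNF2, whose range of 0.27 was the smallest, were the S6 kinase gene RPS6KB1, HNRNPDL and ANKMY2, with differences of 0.0026, 0.0047 and 0.0086 among 8230. These patterns rest on 4 means each. PCGF2 lay at 0.862 to 1.09 times the olfactory background in every K562 group but WT shControl. Its pattern and the likeness to it are therefore uncertain.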

How the data were processed

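RNA of the chromatin fraction was sequenced from 6 mESC siRNA libraries and 12 K562 libraries. The deposited tables, 1 per library, hold raw counts of reads per gene, which per the study's methods the authors made by trimming with Trimmomatic 0.39, alignment with HISAT2 2.2.1 to mm10 or hg38, and counting with HTSeq 0.12.4; featureCounts is named as well. The feature type and strand option are not given in the sources used here. They were checked on the counts: genes lying inside another gene on the same strand were at 0 in 99.9% (mouse) and 97.9% (human) of cases, against 11.0% and 25.5% of those inside a gene on the opposite strand. Counts were therefore read as stranded and over whole spans. Reads with several alignments, 4.77% to 4.83% of records in the mouse and 10.1% to 11.2% in the human libraries, were also set aside, so near-identical copies are undercounted. Lines naming no gene (reads outside genes, ambiguous and multiply aligned reads) were left out of library sizes and tests. Replicate libraries differed by more than sampling noise (chi-square per degree of freedom 3.92 to 14.9), so none was counted as a repeat.

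Symbols were taken from GENCODE annotations of the same builds by gene identifier (99.9% of mouse and 99.1% of human identifiers matched). Counts were filtered with filterByExpr (minimum of 10), scaled by TMM and tested with edgeR 4.0.16 (R 4.3.3) by its quasi-likelihood test, with 1 fit over all genes for the mESC groups and 1 for the 4 K562 groups, and Benjamini-Hochberg adjustment over all genes tested. Calls were made where the adjusted p was under 0.05. Steps were tested on simulated data. The 2-sided exact permutation test of the RNF2 to RING1 ratio used scipy 1.17.1. Alternatives were DESeq2 1.42.0, its size factors, total gene counts, no filter, a minimum of 50 counts, a 1.5-fold threshold, only the groups compared, the replicate block, and leaving out each library. The rule for named genes took all 10 members, up to 3 other PRC1 subunits per comparison (the largest called changes without overlap), the targeted genes and the 3 genes most like PCGF2 and RNF2. Members, lists and tests were chosen with earlier results of these data known. Promoter windows came from the RefSeq table for GRCh38.p14. A lone mESC library of the Pspc1 WT group entered no comparison.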

Additional observations from a re-analysis of the deposited data

Results flagged for a closer look

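The difference between the shMBD6 and shControl labels was called different between TET2 genotypes for 7 of 10 members by edgeR's interaction test. Of all genes tested, 49.4% had such a call. On the log2 scale the interaction was 1.15 for PCGF1, 0.54 for PCGF6, 0.21 for RNF2, -0.22 for KDM2B, -0.30 for RYBP, -0.66 for BMI1 and -0.76 for PCGF5. Among the 5953 genes of at least 5 log2 CPM, 4727 had such a call. The KO arm rests on libraries in which MBD6 was not lower than in their controls, BMI1 is undercounted, and the RNF2 and BMI1 values lost their call under the settings named in the report.

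A single mESC library of the Pspc1 WT group, used in no comparison, stood above all 3 siControl libraries for 5 members when each library was scaled by its total gene counts. Rnf2 read 118 CPM there (79.0 to 83.8 in siControl), Pcgf1 6.95 (4.98 to 6.54), Pcgf3 87.0 (75.0 to 77.2), Bmi1 13.0 (7.66 to 9.35) and Kdm2b 128 (109 to 114). It was below all of them for Pcgf2 (50.2 against 53.9 to 59.2), Pcgf5 (31.8 against 35.3 to 36.6), Pcgf6 (31.5 against 44.8 to 50.1) and Rybp (386 against 481 to 499.9), and within their range for Ring1 (2.24). With 1 library the difference has no replicate check.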

How the results depend on the processing

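Results that kept their direction and call under all scalings, filters and left-out libraries tried, the 1.5-fold threshold apart, included the decrease of Pcgf1, Rybp and Kdm2b in siNsun2, of PCGF1 and RNF2 with shMBD6 in WT, and of PCGF5 and RYBP, with the increase of PCGF6, in KO. Counts are relative, RING1, PCGF1, PCGF2 and BMI1 rest on few counts, and no cause of the changes below was tested unless the setting itself gives it. With total gene counts the members called higher and lower were 2 and 3 in siNsun2 (0 and 7 as reported), 1 and 5 for KO against WT under shControl (2 and 2), 3 and 3 for shMBD6 in WT (0 and 5) and 2 and 3 for shMBD6 in KO (1 and 5). DESeq2 size factors gave 3 and 2, and the DESeq2 test 3 and 3, for shMBD6 in WT, where no filter gave 2 and 2, a minimum of 50 counts 2 higher, and only the groups compared 1 higher. A minimum of 50 counts gave 1 higher in siNsun2, and no filter 1 lower for KO against WT under shControl. A 1.5-fold threshold, which lets fewer genes pass by construction, left 1 lower in siNsun2, 0 higher and 1 lower for KO against WT under shControl, 2 lower for shMBD6 in WT, 0 and 2 for shMBD6 in KO, 1 and 1 for KO against WT under shMBD6, and 1 and 2 in the interaction. The share of all calls that were higher moved from 51.5% to 79.9% in siNsun2, from 51.4% to 35.3% and to 39.5% for KO against WT under shControl and shMBD6, from 41.8% to 53.5% (55.2% with DESeq2 size factors) for shMBD6 in WT, and from 43.3% to 59.9% in KO, with total gene counts.

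Changes of members that were not called, or lost their call, turned sign as follows: for KO against WT under shControl with total gene counts RING1 -0.13, RNF2 -0.17, PCGF5 -0.065 and RYBP -0.031, and RNF2 also with DESeq2 size factors -0.018, no filter -7.09e-05, a minimum of 50 counts -0.020, only the groups compared -0.013 and DESeq2 -0.018; for shMBD6 in WT PCGF3 with total gene counts 0.013, DESeq2 size factors 0.025, no filter 0.020 and DESeq2 0.025; for shMBD6 in KO RNF2 with total gene counts 0.067; and in siNsun2 Pcgf5 with DESeq2 -2.75e-05.

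When each library was left out in turn, the members called lower stayed at 7 in siNsun2 and ranged from 1 to 2 for KO against WT under shControl, 4 to 5 for shMBD6 in WT and in KO, and 3 to 5 in the interaction, and the log2 changes that turned sign ranged from -0.0031 to 0.18 (Bmi1 in siNsun2), -0.22 to 0.17 (RING1), -0.029 to 0.024 (RNF2) and -0.0745 to 0.013 (PCGF6) for KO against WT under shControl, and -0.0055 to 0.041 (KDM2B with shMBD6 in WT). The log2 RNF2 to RING1 ratio ranged from -0.092 to 0.37 in siNsun2 and from -0.18 to 0.22 for KO against WT under shControl.

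Replicate numbers did not pair the samples: same-numbered libraries correlated at -0.021 to 0.11 in their deviations from the group means. With the replicate block, KO against WT under shControl gave 1 member lower in place of 2 (PCGF2, adjusted p = 0.0683 by edgeR) and PCGF5 was called higher.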
